A study of Oryctolagus cuniculus with 2 samples.

Results

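The nuclei described here are those that the authors' annotation calls cones. They numbered 305 of the 6542 deposited nuclei, 123 from the CLRN1 knockout library and 182 from the wild-type library, and all lay in 1 of the 26 deposited clusters, cluster 4. The knockout library pooled the retinal nuclei of 3 CLRN1 knockout rabbits and the wild-type library those of 3 wild-type rabbits, and every animal was 10 months old. The tissue was a punch of the visual streak, the band of densest cells across the rabbit retina, which was frozen before nuclei were isolated. The knockout allele is not described in the labels. Each genotype was 1 droplet library, so a difference between genotypes cannot be told apart from one between the animals pooled or between the libraries, and no test or p-value is given. Intervals are 95% intervals that cover counting error only.

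Cones are the photoreceptors of daylight and colour vision, whereas rods serve dim light. Both turn light into an electrical signal by a cascade of opsin, transducin, phosphodiesterase and a cation channel, but cones use their own versions of most of these proteins and share others with rods, such as structural proteins of the outer segment. CLRN1 encodes clarin-1, a membrane protein whose loss in people causes a form of Usher syndrome, with loss of hearing and degeneration of the retina. The CLRN1 level was not analysed here, since the count matrix as used here carries no gene names.

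The depth of a nucleus is given as its unique molecular identifiers (UMIs), each of which counts 1 captured transcript. The sum was 8233524 UMIs over 3058 knockout nuclei and 6916018 UMIs over 3484 wild-type nuclei. Cones contributed 352124 UMIs in the knockout and 300167 UMIs in the wild-type library. Of 5 cell barcodes present in both libraries, none belonged to a cone. For each nucleus the authors deposited 9 module scores, each a log-scale summary of a set of cell type genes whose members were not given. In scores of this kind a value near 0 means that the set was at the level of its control genes.

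The cone label was checked against the cone score. Its median was 1.10 in cluster 4, against 0.12 in rod cluster 2, the next highest of the 26 clusters, and at most −0.09 in every other cluster. The authors clustered and named the nuclei from the same genes, so this is a description of the label and not a test of it. A cone score above 0.5 was found in 81.3% of knockout cones (73.3 to 87.8%) and 80.8% of wild-type cones (74.3 to 86.2%). Among nuclei of the other cell types it was found in 3.43% (2.99 to 3.91%), from 1.10% of horizontal cells with a median of 2927 UMIs to 7.66% of bipolar cells with a median of 2224 UMIs. The cone score was the highest of the 9 scores in 66 of 123 knockout cones and in 120 of 182 wild-type cones. The rod score led in 54 knockout and 51 wild-type cones. The general photoreceptor score led in 3 knockout and 9 wild-type cones, and the horizontal cell score led in 2 cones, both wild-type. The remaining 5 scores led in no cone of either library. Taken as 3 counts, the limit that a count of 0 allows is 2.44% of knockout and 1.65% of wild-type cones, and the exact intervals of a count of 0 end at 2.95% of knockout and 2.01% of wild-type cones.

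Cones made up a smaller part of the knockout library among shallow nuclei and a larger part among deep ones. Over all nuclei they were 4.02% (3.35 to 4.78%) in the knockout and 5.22% (4.51 to 6.02%) in the wild-type library, with overlapping intervals. Among nuclei with under 1000 UMIs they were 0.874% (0.400 to 1.65%) in the knockout and 2.56% (1.82 to 3.50%) in the wild-type library. Among nuclei with 1000 to under 2000 UMIs they were 6.61% (4.88 to 8.72%) in the knockout and 11.4% (9.38 to 13.7%) in the wild-type library. In both of these bins the intervals lay apart. Among nuclei with 2000 to under 4000 UMIs the shares were 5.86% in the knockout and 4.61% in the wild-type library, and among nuclei with 4000 or more they were 4.23% in the knockout and 2.25% in the wild-type library, with overlapping intervals in both bins. Among photoreceptors alone, cones were 5.64% (4.71 to 6.69%) of knockout and 7.52% (6.50 to 8.65%) of wild-type rods and cones, and these intervals overlapped only narrowly. Horizontal cells and some kinds of bipolar cell receive the output of cones, but the bipolar label here does not separate these kinds. Against all horizontal and all bipolar nuclei the libraries differed in opposite directions. Cones were 55.9% (49.1 to 62.6%) of knockout and 68.4% (62.5 to 74.0%) of wild-type nuclei that were cones or horizontal cells, but 60.6% (53.5 to 67.4%) of knockout and 56.2% (50.6 to 61.7%) of wild-type nuclei that were cones or bipolar cells. The intervals overlapped in both cases.

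**Figure D1:**
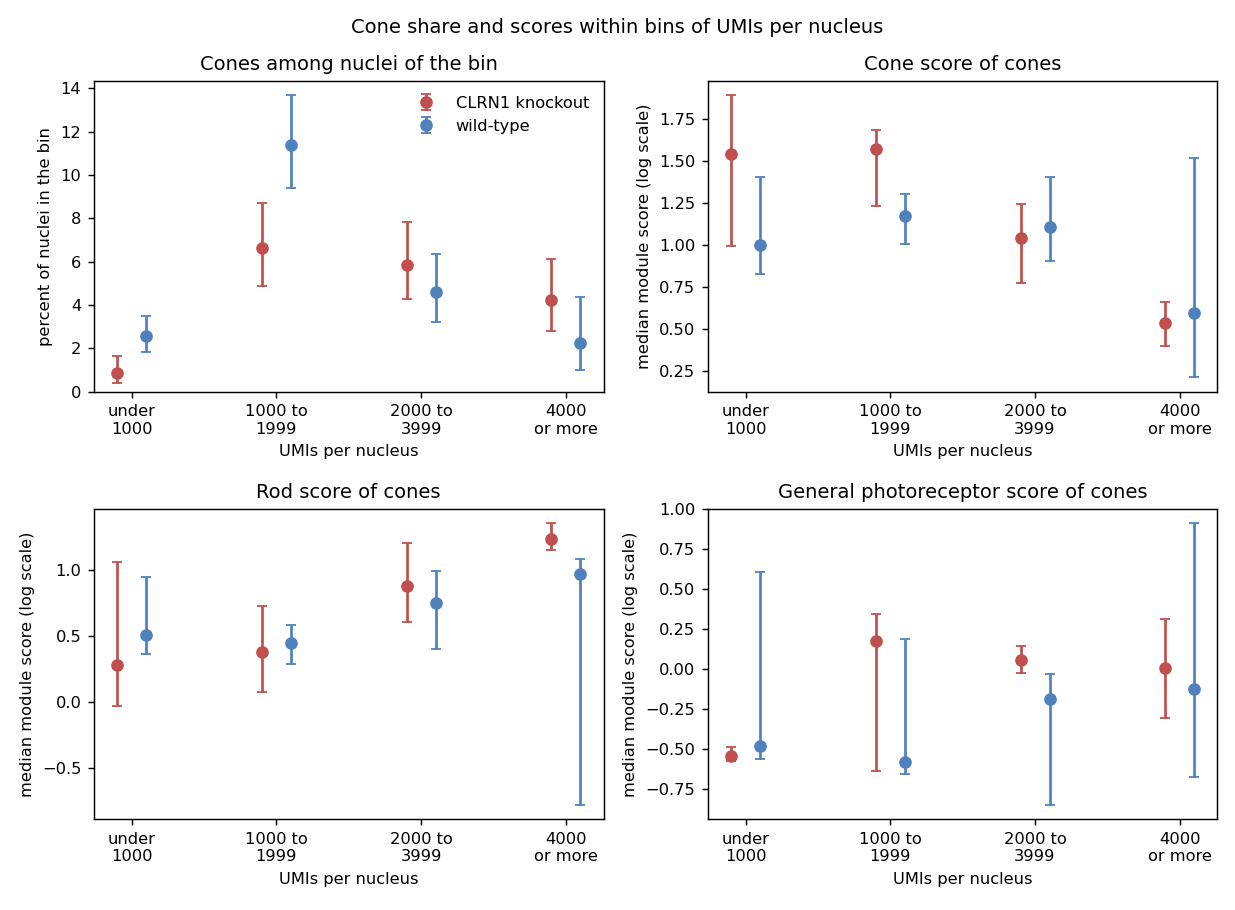
Cones as a percent of all nuclei in each bin of UMIs per nucleus, and the median cone, rod and general photoreceptor score (log scale) of cones in each bin, with knockout points left of wild-type points. Bars are exact 95% binomial intervals for shares and order-statistic 95% intervals for medians; the intervals of the cone share lie apart in the bins under 2000 UMIs.

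Knockout cones were the deeper ones. The number of UMIs ran from 561 to 14746 in knockout cones, with quartiles of 1612.5 and 3560 and a median of 2144 (1923 to 2520). In wild-type cones it ran from 511 to 7458, with quartiles of 1045.75 and 1960.25 and a median of 1412 (1297 to 1541). The ranges overlapped widely, but the intervals of the medians lay apart. Rods were deeper in the knockout library too, with medians of 1067 UMIs in the knockout and 869 UMIs in the wild-type library. The knockout library had 26 of 123 cones with 4000 or more UMIs, or 21.1% (14.3 to 29.4%), and the wild-type library 8 of 182, or 4.40% (1.92 to 8.48%). At the low end, 7.32% (3.40 to 13.4%) of knockout and 20.9% (15.2 to 27.5%) of wild-type cones had under 1000 UMIs. Depth therefore had to be matched before other values of the cones were compared. This was done within 4 bins of UMIs, and by pairing each knockout cone with the wild-type cone nearest in UMIs, which gave 92 pairs that differed by at most 0.041 in log10 UMIs. The paired cones had medians of 1848.5 UMIs in the knockout and 1855 UMIs in the wild-type library. The pairing left out 31 knockout cones, with a median of 4462 UMIs, and 90 wild-type cones, with a median of 1167 UMIs, so it describes the depths that both libraries share.

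The number of genes detected followed the number of UMIs closely in both libraries. The median was 1207 genes in knockout cones and 867 genes in wild-type cones. Genes per UMI, which falls as a nucleus is sampled more deeply, had a median of 0.567 (0.551 to 0.589) in knockout cones and 0.622 (0.607 to 0.643) in wild-type cones. Across nuclei its correlation with log10 UMIs was −0.97 in knockout and −0.91 in wild-type cones (Pearson's r over 123 and 182 nuclei of 1 library each, which share UMIs by construction). In the 92 pairs the direction turned. The median was 0.598 (0.577 to 0.614) in knockout and 0.573 (0.560 to 0.600) in wild-type cones, and the knockout cone had more genes per UMI in 61 of 92 pairs (66.3%, 55.7 to 75.8%). The median difference within pairs was 21 genes (7 to 39), higher in the knockout cone. A line of log10 genes on log10 UMIs over all cones had a slope of 0.742, and 66.7% of knockout and 47.3% of wild-type cones lay above it. Within the UMI bins the medians differed by only −0.0038 genes per UMI, knockout minus wild-type, where the knockout cones of a bin were still the deeper ones, with for instance medians of 1627 UMIs in knockout and 1376 UMIs in wild-type cones in the bin of 1000 to under 2000.

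**Figure D2:**
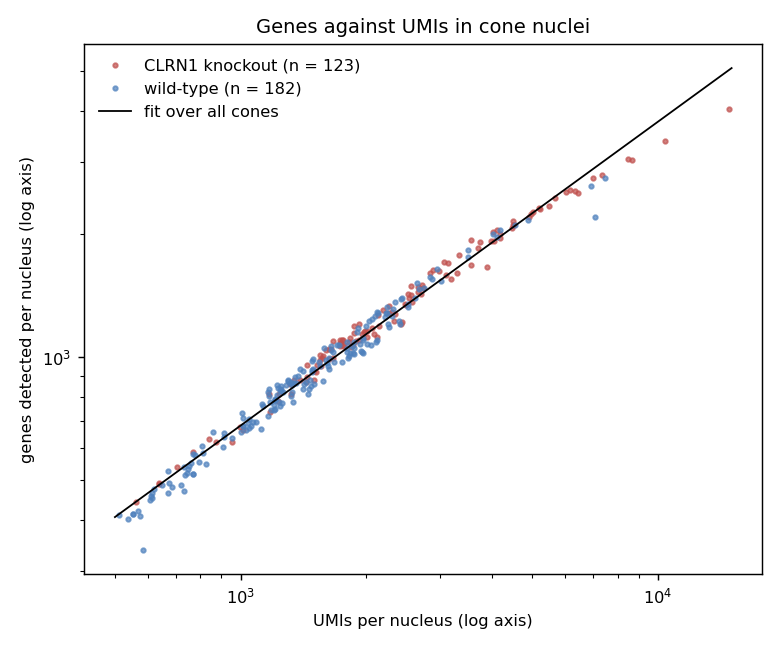
Genes detected against UMIs per nucleus for each cone, both on log axes, with knockout cones in red and wild-type cones in blue and 1 line fitted over all cones. The points hug the line, with a slope of 0.742, and knockout cones reach farther to the right, up to 14746 UMIs against 7458 UMIs in wild-type cones.

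The cone score spread over a wide range in both libraries with nearly the same centre. In knockout cones it ran from 0.02 to 2.37, with quartiles of 0.60 and 1.61 and a median of 1.11 (0.94 to 1.31). In wild-type cones it ran from −0.14 to 2.26, with quartiles of 0.72 and 1.51 and a median of 1.09 (0.98 to 1.26). In the bin of 1000 to under 2000 UMIs the medians were 1.57 (1.23 to 1.69) in the knockout and 1.17 (1.00 to 1.30) in the wild-type library. In the bin of 2000 to under 4000 UMIs they were 1.04 (0.77 to 1.24) in the knockout and 1.10 (0.90 to 1.40) in the wild-type library. The intervals overlapped in both bins. Among the UMI-matched pairs the median was 1.31 (1.10 to 1.52) in knockout and 1.08 (0.91 to 1.21) in wild-type cones, and the knockout cone had the higher score in 55 of 92 pairs (59.8%, 49.0 to 69.9%), an interval that includes 50%. A score above 1.5 was found in 38 of the 92 paired knockout cones, or 41.3% (31.1 to 52.1%), and in 22 of the paired wild-type cones, or 23.9% (15.6 to 33.9%). Over all cones the shares were 32.5% (24.4 to 41.6%) in the knockout and 25.8% (19.6 to 32.8%) in the wild-type library. The intervals overlapped in the pairs and over all cones.

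The rod score of cones was broad as well, and its medians differed less between the libraries at matched depth than over all cones. In knockout cones it ran from −1.07 to 1.88, with quartiles of 0.16 and 1.29 and a median of 0.88 (0.62 to 1.06). In wild-type cones it ran from −0.78 to 1.91, with quartiles of 0.13 and 0.99 and a median of 0.52 (0.42 to 0.65). A rod score above 1 was carried by 43.9% (35.0 to 53.1%) of knockout and 24.7% (18.6 to 31.7%) of wild-type cones, intervals that lay apart. From 1000 to under 2000 UMIs the medians were 0.38 (0.08 to 0.73) in knockout and 0.45 (0.28 to 0.58) in wild-type cones. From 2000 to under 4000 UMIs they were 0.87 (0.60 to 1.20) in knockout and 0.75 (0.40 to 0.99) in wild-type cones, the opposite direction. Among the matched pairs the medians were 0.63 (0.33 to 0.88) in knockout and 0.54 (0.36 to 0.80) in wild-type cones, and the knockout cone had the higher rod score in 46 of 92 pairs. For comparison, the median rod score was 1.26 in knockout and 1.11 in wild-type rods. In the other 5 cell types, which do not use rod phototransduction, the medians ran from −0.35 in horizontal cells to 0.35 in bipolar cells of the knockout library. In the wild-type library they ran from −0.41 in ganglion cells to 0.40 in bipolar cells. The median of cones lay between rods and these types, each taken as a whole, in both libraries. Single clusters did not all keep this order. Over both libraries the median rod score was 0.62 in cones and 0.61 in ganglion-labelled cluster 14. It was 0.87 in rod cluster 2, but −0.02, 0.15 and 0.04 in rod-labelled clusters 9, 10 and 16. The part of free rod RNA or of droplets with more than 1 nucleus in these scores was not tested.

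The rod score exceeded the cone score in 54 of 123 knockout cones, or 43.9% (35.0 to 53.1%), and in 57 of 182 wild-type cones, or 31.3% (24.7 to 38.6%). The share of such cones was highest at great depth. Under 1000 UMIs it was 0 of 9 knockout and 12 of 38 wild-type cones. From 1000 to under 2000 UMIs it was 19.6% (9.36 to 33.9%) of 46 knockout and 26.7% (18.4 to 36.5%) of 101 wild-type cones. From 2000 to under 4000 UMIs it was 50% (34.2 to 65.8%) of 42 knockout and 31.4% (16.9 to 49.3%) of 35 wild-type cones. At 4000 or more UMIs it was 24 of 26 knockout and 7 of 8 wild-type cones. In the matched pairs the shares were 32.6% (23.2 to 43.2%) in the knockout and 34.8% (25.1 to 45.4%) in the wild-type library.

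**Figure D3:**
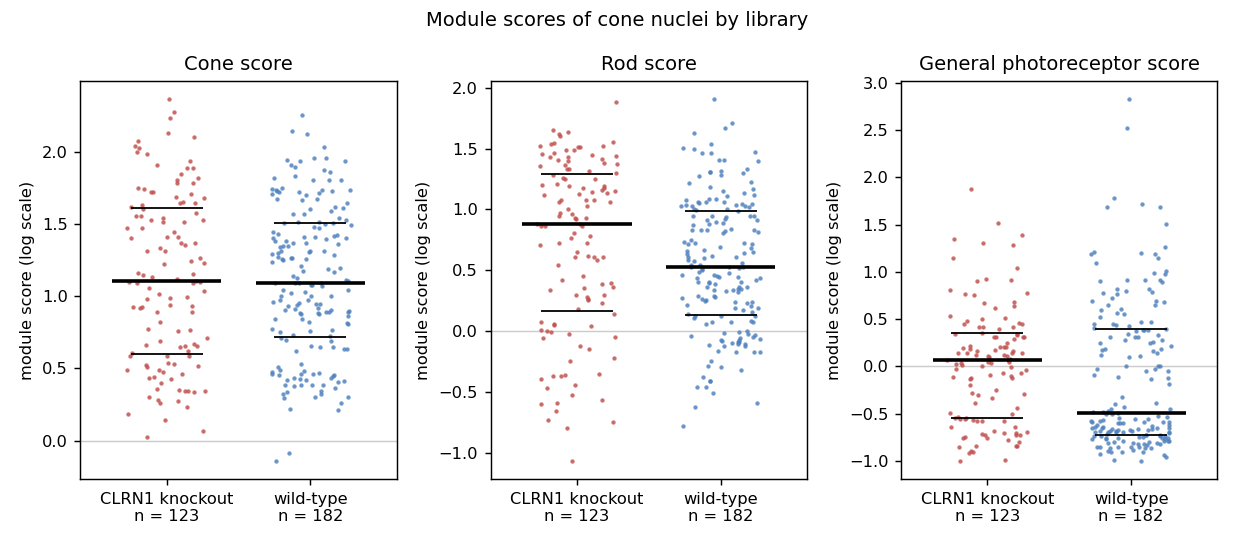
Cone, rod and general photoreceptor score (log scale) of each of 123 knockout and 182 wild-type cones, with the median as a thick line and the quartiles as thin lines. The medians of the cone score nearly coincide, at 1.11 in knockout and 1.09 in wild-type cones, while the general photoreceptor score gathers below −0.4 in 53.8% of wild-type cones.

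The general photoreceptor score, for genes of rods and cones alike, was the score whose median differed most between the libraries over all cones. In the matched pairs it was the cone score, with medians 0.24 apart, against 0.14 for the general photoreceptor score. The median difference within pairs was smaller for both. It was 0.208 (−0.015 to 0.368) for the cone score and 0.084 (−0.023 to 0.175) for the general photoreceptor score, and both intervals include 0. Most values of the general photoreceptor score lay under −0.4 or above 0 in both libraries, but the split was less clear in knockout cones. From 2000 to under 4000 UMIs the quartiles of knockout cones were −0.11 and 0.19, on either side of 0. Scores under −0.4 were found in 36 of 123 knockout cones, or 29.3% (21.4 to 38.1%), and in 98 of 182 wild-type cones, or 53.8% (46.3 to 61.2%). Between −0.4 and 0 lay only 18 knockout and 11 wild-type cones, and above 0 lay 56.1% (46.9 to 65.0%) of knockout and 40.1% (32.9 to 47.6%) of wild-type cones. These limits were chosen after the values were seen, and 18 knockout and 9 wild-type cones lay within 0.1 of 0. The median was 0.06 (−0.06 to 0.14) in knockout cones and −0.49 (−0.59 to −0.09) in wild-type cones. With the limit at 0.2 in place of 0 the shares were nearly equal, at 35.8% of knockout and 34.1% of wild-type cones, so the libraries differed in the low and middle ranges of the score. The size of this difference varied between the ways of matching depth, which also kept different cones. The reason was not tested. The medians differed by 0.54 within the UMI bins, close to the 0.55 over all cones, but by 0.14 in the matched pairs. In the pairs, scores under −0.4 were found in 33.7% (24.2 to 44.3%) of knockout and 44.6% (34.2 to 55.3%) of wild-type cones, scores above 0 in 53.3% (42.6 to 63.7%) of knockout and 43.5% (33.2 to 54.2%) of wild-type cones, and the knockout cone had the higher score in 53 of 92 pairs (57.6%, 46.9 to 67.9%). By bin, scores above 0 were held by 63.0% (47.5 to 76.8%) of knockout and 45.5% (35.6 to 55.8%) of wild-type cones from 1000 to under 2000 UMIs. From 2000 to under 4000 UMIs they were held by 61.9% (45.6 to 76.4%) of knockout and 31.4% (16.9 to 49.3%) of wild-type cones. The intervals of the shares overlapped in both bins. The medians of the shallower bin, 0.18 (−0.64 to 0.35) in knockout and −0.59 (−0.65 to 0.19) in wild-type cones, had wide intervals that overlapped. The medians of the deeper bin, 0.06 (−0.02 to 0.14) in knockout and −0.19 (−0.85 to −0.03) in wild-type cones, had intervals that lay apart by a narrow gap.

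The other cell types gave a frame for that score. A general photoreceptor score above 0 was found in 40.2% (38.1 to 42.4%) of knockout and 33.2% (31.3 to 35.2%) of wild-type rods, and in rod cluster 2, whose nuclei had a median of 3968 UMIs, in 48.5% (43.7 to 53.3%) of knockout and 33.8% (29.0 to 38.8%) of wild-type nuclei. The share was thus higher in the knockout library in rods as well. Amacrine cells had such scores in 5.97% of knockout and 12.0% of wild-type nuclei, the opposite direction, with intervals that lay apart. Scores above 0 were not limited to photoreceptors. Bipolar cells had them in 41.25% (30.4 to 52.8%) of knockout and 39.4% (31.3 to 48.0%) of wild-type nuclei. The shares were 20.4% of knockout and 26.0% of wild-type Müller glia, 6.19% and 16.7% of horizontal cells, and 6.82% and 5.41% of ganglion cells, in the same order. Whether the difference in cones was larger than that in rods was not tested, since each library gives 1 value per cell type.

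Within single nuclei, cones with a high cone score had a low rod score. The correlation of both scores was −0.64 by Pearson's r and −0.65 by Spearman's rho over 123 knockout cones, and −0.60 by r and −0.61 by rho over 182 wild-type cones. These are descriptions over nuclei that share a library, a depth range and the genes used to cluster them, and no p-value is given. Among UMI-matched cones r was −0.56 in the knockout and −0.59 in the wild-type library (n = 92 each). From 1000 to under 2000 UMIs it was −0.53 in 46 knockout and −0.57 in 101 wild-type cones, and from 2000 to under 4000 UMIs −0.69 in 42 knockout and −0.70 in 35 wild-type cones. Over rods r was −0.002 and rho 0.12 in the knockout library, and r was −0.047 and rho 0.14 in the wild-type library. Over amacrine cells, inhibitory interneurons, r was 0.20 in the knockout and 0.28 in the wild-type library. The general photoreceptor score followed neither of the others closely in cones. Its r with the cone score was −0.01 in the knockout and 0.10 in the wild-type library, and with the rod score 0.08 in the knockout and −0.04 in the wild-type library.

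**Figure D4:**
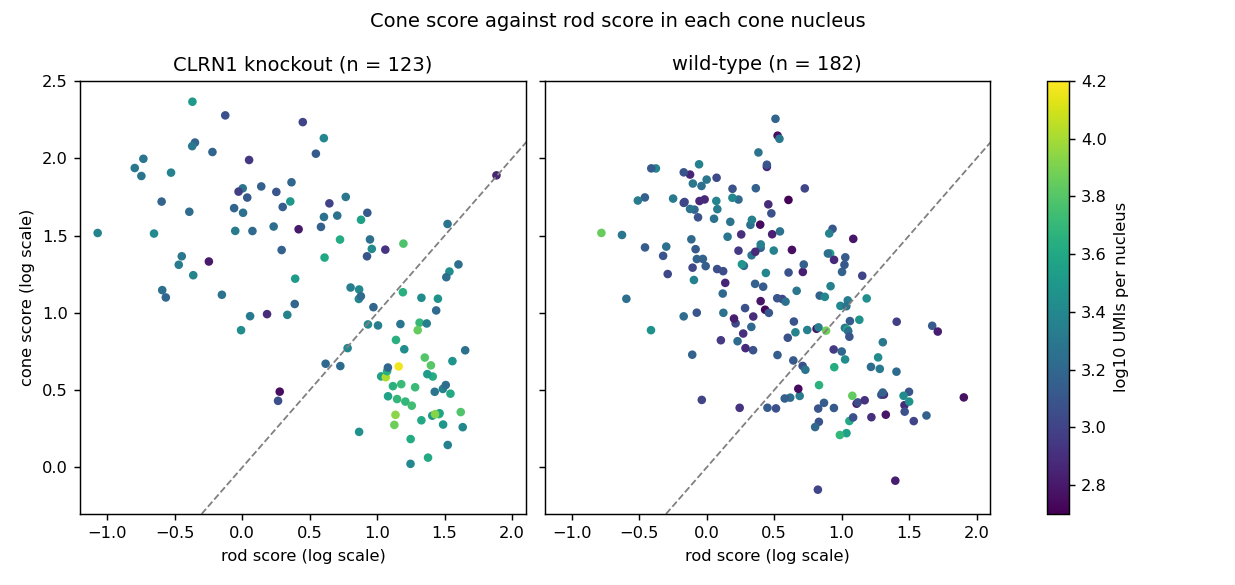
Cone score against rod score (both log scale) for each cone, with the knockout library on the left and the wild-type library on the right, coloured by log10 UMIs; the dashed line marks equal scores. Scores oppose each other in both libraries (r of −0.64 in knockout and −0.60 in wild-type cones), and the deep knockout cones sit at the lower right.

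Over all cones and in the matched pairs, the libraries differed in how the cone and rod scores moved with depth. Few wild-type cones were deep, with 8 of 182 at 4000 or more UMIs against 26 of 123 knockout cones. The part of this narrower range in the contrast was not tested. In knockout cones the cone score was lower in deeper nuclei, with r = −0.53 and rho = −0.57 against log10 UMIs, and the rod score was higher, with r = 0.43 and rho = 0.47. In wild-type cones both lay near 0, at r = −0.02 and rho = 0.04 for the cone score and r = −0.03 and rho = −0.01 for the rod score. Among the matched cones r for the cone score was −0.45 in the knockout and −0.05 in the wild-type library, and r for the rod score was 0.31 in the knockout and 0.09 in the wild-type library. Within bins the contrast was not as clear. For the cone score r was −0.21 in knockout and 0.22 in wild-type cones from 1000 to under 2000 UMIs, and −0.24 in knockout and −0.33 in wild-type cones from 2000 to under 4000 UMIs. Without the cones above −4 on the second embedding axis, described next, r for the cone score was −0.22 in 84 knockout cones and 0.16 in 158 wild-type cones.

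In the authors' embedding, a map in which nuclei of like expression lie close together, the cones formed an elongated body of 298 nuclei. A group of 5 knockout cones and a group of 2 wild-type cones lay apart from it, at any joining distance from 0.3 to 1 unit. Along the second axis cones passed from those of high cone score to those of high rod score. The counts by axis that follow are over all 305 cones, and the 7 cones apart all lie above −4. At or below −6 lay 39 knockout and 55 wild-type cones, with median cone scores of 1.65 in knockout and 1.52 in wild-type cones and median rod scores of −0.01 in knockout and 0.05 in wild-type cones. Above −4 lay 39 knockout and 24 wild-type cones, with median cone scores of 0.48 in knockout and 0.45 in wild-type cones and median rod scores of 1.33 in knockout and 1.05 in wild-type cones. In that upper end the rod score exceeded the cone score in 39 of 39 knockout and 22 of 24 wild-type cones, while at or below −6 it did so in 0 of 39 knockout and 1 of 55 wild-type cones. The score medians changed in order between these ends in both libraries. The median rod score from −5 to −4 was 0.95 in 20 knockout and 1.01 in 40 wild-type cones.

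The upper end held 31.7% (23.6 to 40.7%) of knockout cones and 13.2% (8.64 to 19.0%) of wild-type cones, and these intervals lay apart. Of the body alone, without the 7 cones apart, it held 34 of 118 knockout cones, or 28.8% (20.8 to 37.9%), and 22 of 180 wild-type cones, or 12.2% (7.82 to 17.9%), with intervals that lay apart as well. Its knockout cones had a median of 4050 UMIs and its wild-type cones a median of 1797.5 UMIs, against medians of 1893 UMIs in knockout and 1802 UMIs in wild-type cones at or below −6. Of the cones with 4000 or more UMIs, 21 of 26 in the knockout and 6 of 8 in the wild-type library lay in the upper end. Among the matched pairs the upper end held 21.7% (13.8 to 31.6%) of knockout and 18.5% (11.1 to 27.9%) of wild-type cones, and the intervals overlapped widely. The non-cone nucleus nearest in the embedding was a rod for all 305 cones and belonged to rod cluster 2 for 293 of them. Over all 305 cones, all 20 nearest nuclei were cones for 108 of 123 knockout and 177 of 182 wild-type cones. Labels and embedding come from the same data, so these counts are a description and do not test whether cones are separate. The 5 knockout cones that lay apart had a median of 3076 UMIs, a median cone score of 0.23 and a median rod score of 1.25. Without the 7 cones apart, the medians of the rod score differed by 0.34, knockout minus wild-type, in place of 0.36.

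**Figure D5:**
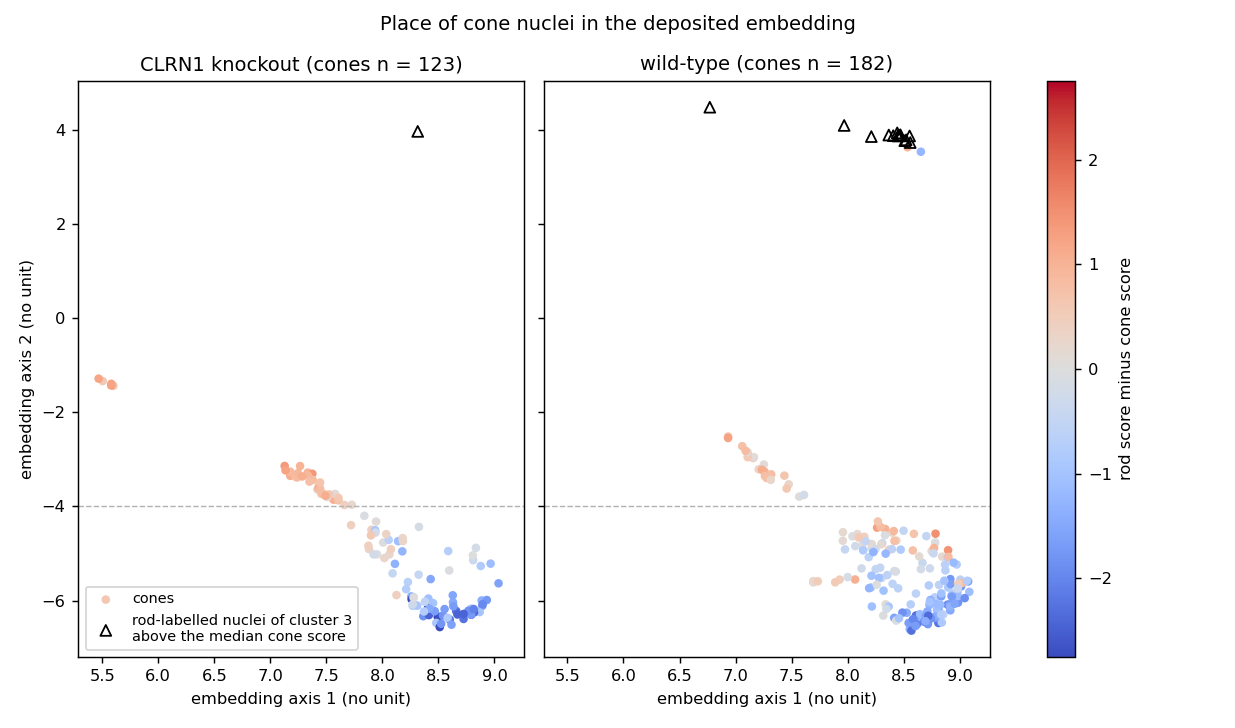
Place of each cone on the 2 embedding axes (no unit), with the knockout library on the left and the wild-type library on the right, coloured by rod score minus cone score; the dashed line marks −4 on the second axis, and triangles mark 16 nuclei of rod cluster 3 with a cone score above the median of cones. Red cones with the higher rod score gather above the line, where 31.7% of knockout and 13.2% of wild-type cones lie.

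At or below −4, where the upper end is left out, the rod scores of the libraries lay close together. The second axis itself followed the rod score, with r = 0.73 in knockout and 0.48 in wild-type cones. The cut thus left out cones of high rod score, 39 knockout and 24 wild-type, so the closeness describes the cut and is not a separate result. The medians of the rod score differed by −0.05 and those of the cone score by 0.22, knockout minus wild-type, and the median of UMIs was still higher in the knockout library, by 0.42 on the log2 scale against 0.60 over all cones. The general photoreceptor score differed by 0.57 there, close to the 0.55 over all cones.

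Scores of other retinal cell types were low in cones. The medians of the bipolar, horizontal, amacrine, ganglion cell and Müller glia scores lay between −0.21 and −0.08 in knockout and between −0.21 and −0.07 in wild-type cones. A bipolar score above 0 was found in 8.94% (4.55 to 15.4%) of knockout and 19.2% (13.8 to 25.7%) of wild-type cones, with overlapping intervals, and in 8 knockout and 14 wild-type cones of the 92 matched pairs. A Müller glia score above 0 was found in 17.9% (11.6 to 25.8%) of knockout and 17.0% (11.9 to 23.3%) of wild-type cones. The highest score of another type in a cone was a horizontal cell score of 1.55, in a wild-type cone. A microglia score above 0 was found in 1 cone of each library.

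Mitochondrial transcripts, which mark cytoplasm carried along with nuclei, were scarce in cones. They made up 335 UMIs, or 0.0951% (0.0852 to 0.106%), in knockout cones and 472 UMIs, or 0.157% (0.143 to 0.172%), in wild-type cones. The median share per nucleus was 0.063% (0.043 to 0.081%) in knockout and 0.089% (0.070 to 0.112%) in wild-type cones, with overlapping intervals. No mitochondrial UMI was found in 28.5% (20.7 to 37.3%) of knockout and 31.3% (24.7 to 38.6%) of wild-type cones. Over 1% lay 0 of 123 knockout cones and 6 of 182 wild-type cones, the highest at 4.03%, with 31 of 769 UMIs. The 6 wild-type cones carried 151 of the 472 mitochondrial UMIs. Without them the wild-type cones had 321 of 293838 UMIs, or 0.109% (0.0976 to 0.122%), and the interval overlapped that of the knockout cones. At matched UMIs the medians were 0.057% in knockout and 0.072% in wild-type cones.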

How the data were processed

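Nuclei of 3 rabbits per genotype were captured as 1 library with 10x Genomics 3′ chemistry, per the labels' protocols. The genome build OryCun2.0 and the tools DESeq2 1.38.0, Seurat 4.3.0 and Cell Ranger 7.0 are listed, without their roles, in the submitters' processing notes. How nuclei were filtered and whether doublets or free RNA were removed is not stated there; no deposited nucleus has fewer than 499 UMIs. The authors deposited, per nucleus, raw counts of UMIs and detected genes, the mitochondrial share as a percent, 9 module scores named as Seurat's module scoring names them, a cluster, a cell type and 2 embedding coordinates.

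The deposited count matrix carries numbers in place of gene and nucleus names and was not used. Hence no gene could be named, the rule for naming genes (those that differ most between the libraries in cones) and the lists of cell type markers could not be applied, nuclei were not thinned to a fixed number of UMIs, and no doublet caller was run. The labels mention a genetic assignment of nuclei to single animals, which was not used here.

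Libraries were taken from the library name of each nucleus. Shares have exact Clopper-Pearson 95% intervals and medians have 95% intervals from order statistics. Intervals are called apart where they do not overlap, which is a description and not a test. UMI bins were divided at 1000, 2000 and 4000, and those with at least 10 cones of each library were used and weighted by the smaller number. Pairs were formed without reuse, nearest first, within 0.05 in log10 UMIs. Cones apart in the embedding were found by single linkage. The cone group and all limits were chosen with earlier results of these data known. Values were computed with pandas 2.3.3 and SciPy 1.17.1 under Python 3.11.15 (numpy 2.4.6), and plots were drawn with matplotlib 3.10.9. Alternatives changed the denominator of the cone share, the lowest UMIs, the mitochondrial limit, the depth matching and the measure of correlation.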

Additional observations from a re-analysis of the deposited data

Results flagged for a closer look

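In 3 measures the difference between the knockout and wild-type libraries had another sign in cones than in rods, although in one of them, the cone score, the value in rods was close to 0. None of these contrasts was tested, because each library gives 1 value per cell type. On the log2 scale, the share of all nuclei in the knockout library over that in the wild-type library was −0.38 in cones and 0.069 in rods. The cone score differed, knockout minus wild-type within UMI bins, by 0.20 in cones and by −0.00063 in rods, whose cone score had a median of −0.11 in the knockout and −0.10 in the wild-type library. Signs were mixed in both types for this score, with the higher median in knockout nuclei in 1 of 2 bins for cones and 2 of 4 bins for rods. Genes per UMI differed within the bins by −0.0038 in cones and by 0.0056 in rods, and the sign in cones turned when single cones were paired for UMIs.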

How the results depend on the processing

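No paired analysis was possible because each genotype is 1 library and the labels give no replicate numbers that groups share. Of 69 alternative values, 62 stayed within the counting error of the reported value, or within 0.1 for correlations. The counting error was wide, so a value within it need not have kept its size. Counted among the 62 are the rod score within bins and in the pairs. So are all alternatives given below for the cone score, the general photoreceptor score and the share of cones with that score above 0. The cone share, knockout over wild-type, was −0.38 on the log2 scale and 0.40 over nuclei with 2000 or more UMIs, which kept 68 of 123 knockout and 43 of 182 wild-type cones. It ranged from −0.48 to −0.25 under the others. The difference in genes per UMI, −0.055 unmatched, was −0.0038 within UMI bins and 0.025 in pairs matched for UMIs. The difference in the rod score, 0.36, was 0.016 within UMI bins, 0.090 in the pairs and −0.045 among cones at or below −4 on the second embedding axis. That axis followed the rod score, so the cut at −4 is not independent of it. The value within bins averages opposite signs, with the higher median in knockout cones in 1 of 2 bins. The difference in the cone score, 0.013, was 0.20 within bins and 0.24 in the pairs, and that in the general photoreceptor score, 0.55, was 0.54 within bins and 0.14 in the pairs. Score values given here for the pairs are differences between the medians of both libraries, not medians of the differences within pairs. The share of cones with a general photoreceptor score above 0 was higher in the knockout library by 16.0 percentage points, by 1.71 with the limit at 0.2, by 20.8 with the limit at −0.2 and by 9.78 in the pairs. The correlation of cone and rod score in knockout cones, −0.64, was −0.53 with log10 UMIs held fixed and −0.38 at or below −4 on the second embedding axis. The pooled mitochondrial share, knockout over wild-type, was −0.72 on the log2 scale and −0.20 without the 6 wild-type cones over 1%. The cause of these shifts was not tested. The alternatives on the cones apart in the embedding, the cones over 1% mitochondrial UMIs, the band at −4, the share over rods and cones and the limits on the general photoreceptor score were chosen after seeing the data. Fewer than 10 wild-type cones had 4000 or more UMIs and fewer than 10 knockout cones had under 1000, so the binned values describe cones between these limits, while the pairs reach from 561 to 7458 UMIs.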

Other observations

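Some nuclei outside the cone label had high cone scores. Outside cones, 29 of 6237 nuclei had a cone score above 1.10, the median of cones, and 16 of these were labelled as rods in cluster 3. Of the 16, 1 was from the knockout and 15 from the wild-type library, or 0.758% (0.0192 to 4.15%) of 132 knockout and 6.82% (3.87 to 11.0%) of 220 wild-type nuclei in the cluster. They were chosen for their cone score, so its level is a description only, with a median of 1.94. Their median rod score was 0.80. Their median general photoreceptor score was 1.43, with 15 of 16 above 0, against −0.09 in cones and −0.30 in the rest of cluster 3. They were shallow and rich in mitochondrial transcripts, with medians of 628 UMIs and 4.52% mitochondrial UMIs, against 790 UMIs and 0.931% in the rest of cluster 3 and 1676 UMIs and 0.077% in cones. In the embedding 15 of the 16 lay within 1 unit of the 2 wild-type cones that stood apart, which had 769 and 1016 UMIs. The cone with 769 UMIs had a cone score of 1.70 and 4.03% mitochondrial UMIs. The cone with 1016 UMIs had a cone score of −0.14, the lowest of all cones, and 0.394% mitochondrial UMIs.

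Counting these 16 nuclei as cones, a choice made after seeing the data, had to widen the difference in cone share, because 15 of them were wild-type. The remaining non-cone nuclei with a cone score above the median of cones were not counted. The cone share would then be 4.05% (3.38 to 4.82%) in the knockout and 5.65% (4.91 to 6.47%) in the wild-type library, with intervals that lie apart. The log2 ratio would be −0.48 in place of −0.38. Among nuclei with 1000 or more UMIs the shares so counted would be 5.62% (4.66 to 6.71%) in the knockout and 7.30% (6.20 to 8.52%) in the wild-type library, with overlapping intervals. The part of depth and of mitochondrial content in the labels of these nuclei was not tested.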
